A study of Mus musculus with 4 samples.

Results

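The D-type cyclins, their kinase partners and the inhibitors that act on them were examined as a group of 8 genes, found by symbol among the 27998 genes counted in bone marrow LSK cells of control and Nup358 knockout mice. The group holds the cyclins Ccnd1, Ccnd2 and Ccnd3, the kinases Cdk4 and Cdk6, and the inhibitors Cdkn1b, Cdkn2c and Cdkn2d. The group was selected on 1 measured value, the Ccnd1 counts, which had been seen to be higher in the knockout, and otherwise on family membership. The genotype difference of Ccnd1 is therefore given as a description with no test, and counts of genotype calls are over the other 7 genes.

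D-type cyclins are made in response to growth factors and carry cells through G1. Each binds Cdk4 or Cdk6, and the active kinase phosphorylates the retinoblastoma protein and its relatives, which releases E2F factors to switch on the genes of DNA replication. Cdkn2c and Cdkn2d encode INK4 proteins that bind the kinases and keep cyclins out, while Cdkn1b encodes p27, which inhibits cyclin E and cyclin A complexes of Cdk2 and is bound by cyclin D complexes. In bone marrow, long-term stem cells are mostly out of cycle with high p27, and Cdk6 is known as the kinase whose level sets how fast they leave quiescence.

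Control mice of the study carry Nup358 fl/fl alleles without Cre, and knockout mice combine them with R26-CreERT2, a Cre recombinase expressed in all tissues and activated by tamoxifen. Each genotype has 2 libraries. The controls are called wild-type in the labels and share the floxed alleles with the knockout. Knockout mice were given tamoxifen as adults, and whether the control animals of these libraries also received it is not given in the labels. Mice were 9 to 12 weeks old, and each library pooled the bone marrow of 3 animals. LSK cells are lineage-negative, Sca1-positive and cKit-positive cells, the fraction that holds stem cells and multipotent progenitors, and their RNA was counted with the 10x Genomics 3′ method as unique molecular identifiers (UMIs).

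A total of 10936 of the 25242 deposited barcodes (43.3%) occurred again in another library, there with 3 or more times the UMIs. These copied barcodes were left out, together with those under 200 genes or above 10% mitochondrial UMIs. Control replicates 1 and 2 kept 7830 and 1200 cells, while knockout replicates 1 and 2 kept 1589 and 3422. They carried 59033602, 18846887, 32736147 and 53844729 UMIs in the same order, with medians from 6251 to 17707 UMIs per cell. Ranbp2, the gene that encodes Nup358, had 127 and 101 CPM (UMIs scaled to the library total) in control and 123.5 and 126 in knockout libraries. A 3′ count lies away from a floxed exon and checks no deletion. The sort markers Kit and Ly6a were detected in every library, Kit at 73.3 to 103 CPM. Ly6a, which encodes Sca1, was at 133 and 190 CPM in control and 317 and 218 CPM in knockout libraries. In the copied barcodes that were left out, Ccnd1 was at 38.0 and 40.7 CPM in control and 31.4 and 20.4 CPM in knockout libraries.

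In the mouse build GRCm38, all 8 genes are annotated as protein coding. Ccnd1 lies at chr7:144929931-144939925 on the minus strand, Ccnd2 at chr6:127125162-127152193 on the minus strand and Ccnd3 at chr17:47505051-47599691 on the plus strand. Cdk4 lies at chr10:127063534-127067920 and Cdk6 at chr5:3341485-3531008, both on the plus strand. Cdkn1b lies at chr6:134920401-134925513 on the plus strand, Cdkn2c at chr4:109660876-109667189 and Cdkn2d at chr9:21288410-21291407, both on the minus strand. The 3′ ends of Ccnd1, Ccnd3 and Cdk4 are each covered by a coding gene on the opposite strand, LTO1, Bysl and Tspan31, and the strand setting of the counting is not given in the sources used here. LTO1 was at 9.11 and 7.38 CPM in control and 10.02 and 10.2 CPM in knockout libraries, against 11.03, 12.8, 49.2 and 51.4 CPM for Ccnd1 on the same unscaled counts. Bysl was at 21.5 to 38.4 CPM and Tspan31 at 43.6 to 54.1 CPM over the 4 libraries.

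Promoter windows from 250 bases before to 50 after an annotated start were read from RefSeq (GRCm38.p6), which matched 6 of the 8 genes with 8 starts. Ccnd1 and Ccnd2 had no match, so their promoters were not searched. The windows shown are those of Cdk4, Cdk6 and a start of Cdkn2c, because these genes were the members higher in G2M-high than in low-cycling cells, and because they are the windows that hold the E-box CACGTG, in capitals, the sequence bound by Myc and related factors. The sequences are printed 5′ to 3′ on the strand of the gene.
Cdk4 promoter, chr10:127063285-127063584, plus strand: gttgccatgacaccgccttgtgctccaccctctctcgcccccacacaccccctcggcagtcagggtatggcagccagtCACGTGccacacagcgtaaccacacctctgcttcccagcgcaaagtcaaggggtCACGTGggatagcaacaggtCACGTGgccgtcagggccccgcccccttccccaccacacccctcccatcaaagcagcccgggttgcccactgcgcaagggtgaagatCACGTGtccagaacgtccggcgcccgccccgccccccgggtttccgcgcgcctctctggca
Cdk6 promoter, chr5:3343643-3343942, plus strand: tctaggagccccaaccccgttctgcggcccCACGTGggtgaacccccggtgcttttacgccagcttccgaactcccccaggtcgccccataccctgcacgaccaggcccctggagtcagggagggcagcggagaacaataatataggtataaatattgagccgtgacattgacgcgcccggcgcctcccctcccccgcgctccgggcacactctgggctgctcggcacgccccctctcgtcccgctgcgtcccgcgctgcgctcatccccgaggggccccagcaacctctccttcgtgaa
Cdkn2c promoter, chr4:109665323-109665622, minus strand: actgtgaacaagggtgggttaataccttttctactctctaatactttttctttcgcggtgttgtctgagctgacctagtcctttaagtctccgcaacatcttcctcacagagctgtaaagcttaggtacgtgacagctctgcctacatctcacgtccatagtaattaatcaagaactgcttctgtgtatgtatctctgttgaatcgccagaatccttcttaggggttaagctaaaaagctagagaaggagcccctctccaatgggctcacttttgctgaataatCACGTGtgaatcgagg
The Cdk4 window held 4 E-boxes and the other pair 1 each. The window of the other Cdkn2c start, chr4:109666707-109667006, held 0. Whether the E-box goes with the level in cycling cells was not tested. The E-box reads the same on both strands and was found in 7.15% of all 32851 promoter windows. No member window held TTTCGCGC or TTTGGCGC, forms of the E2F site, or TTTGAA, the CHR element of late cell cycle genes, on either strand. Those were present in 0.813% and 17.9% of all windows. A match shows only that the letters are there.

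Over all kept LSK cells Ccnd1 and Ccnd2 were higher and the 3 inhibitors lower in both knockout libraries than in either control library, while Ccnd3 and the kinases overlapped between genotypes. With 2 libraries against 2, an exact two-sided permutation cannot give p under 0.333 even where groups do not overlap. How many of all genes had groups apart was not counted, so this order alone is no result about the members. Values are CPM after TMM scaling of UMIs summed per library, and each UMI is one molecule counted at its 3′ end. Ccnd1 was at 10.99 and 13.3 CPM in control and 48.3 and 50.9 CPM in knockout libraries, a 4.09-fold higher mean (log2 difference 2.04). That difference chose the group and has no test. It lay between 1.64 and 2.17 on the log2 scale under every alternative computed for it. In bulk sums, more cells of a type that express a gene and more RNA per cell cannot be told apart.

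Ccnd2, the D cyclin that responds to cytokine signals in blood progenitors, was at 139 CPM in both control libraries and at 236 and 216 CPM in the knockout. The groups were apart by more than their spread (means 139 ± 0.301 and 226 ± 13.8 CPM, SD, n = 2 each), and the log2 difference of 0.70 (SE 0.14) missed the threshold (edgeR quasi-likelihood test, Benjamini-Hochberg adjusted p = 0.0511). Ccnd3, needed for expansion of early lymphoid and erythroid cells, was at 118 and 136 CPM in control and 130.2 and 177 CPM in knockout libraries. Its groups overlapped, and its log2 difference was 0.28 (SE 0.19, edgeR adjusted p = 0.44).

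Cdk4 was at 516 and 463 CPM in control and 433 and 505 CPM in knockout libraries. Cdk6 was at 610.1 and 508 CPM in control and 532 and 548 CPM in the knockout. For both kinases the groups overlapped and the log2 differences were −0.06 (SE 0.17) and −0.05 (SE 0.17), with edgeR adjusted p = 0.87 and 0.90.

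All 3 inhibitors were lower in both knockout libraries than in either control library, and none passed the threshold. Cdkn1b was at 63.8 and 75.3 CPM in control and 45.5 and 44.3 CPM in the knockout (log2 difference −0.63, SE 0.15, edgeR adjusted p = 0.067). Cdkn2c was at 9.55 and 13.5 CPM in control and 6.24 and 5.22 CPM in the knockout (log2 difference −0.998, SE 0.22, edgeR adjusted p = 0.062). Cdkn2d was at 54.6 and 57.1 CPM in control and 40.8 and 43.5 CPM in the knockout (log2 difference −0.41, SE 0.14, edgeR adjusted p = 0.15).

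None of the 7 members passed the threshold over all LSK cells with edgeR, where 3.44% of 13779 genes did. At an unadjusted p under 0.05 there were 4 (Ccnd2, Cdkn1b, Cdkn2c and Cdkn2d), beside 2986 of the 13779 genes. With DESeq2 the adjusted call was made for 3 (Ccnd2, Cdkn1b and Cdkn2c), beside 946 of 13779 genes. With 1 control library left out, more members passed in edgeR, and more of all genes did as well. The median log2 difference of the 7 was −0.06, beside −0.01 over all genes tested. Summed by role on unscaled counts, the D cyclins reached 268 and 279 CPM in control and 422 and 449 CPM in knockout libraries. The inhibitors summed to 128 and 141 CPM in control and 94.2 and 93.9 CPM in the knockout. There were 2.09 and 1.97 D cyclin UMIs per inhibitor UMI in control libraries and 4.48 and 4.78 in the knockout. These ratios include Ccnd1, which chose the group, and were not tested. Immediate early genes, which respond within minutes to handling and signals, were lower in the knockout, with 6 of 10 called over all cells (median log2 difference −1.49), and their part in the members' differences was not tested.

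**Figure D1:**
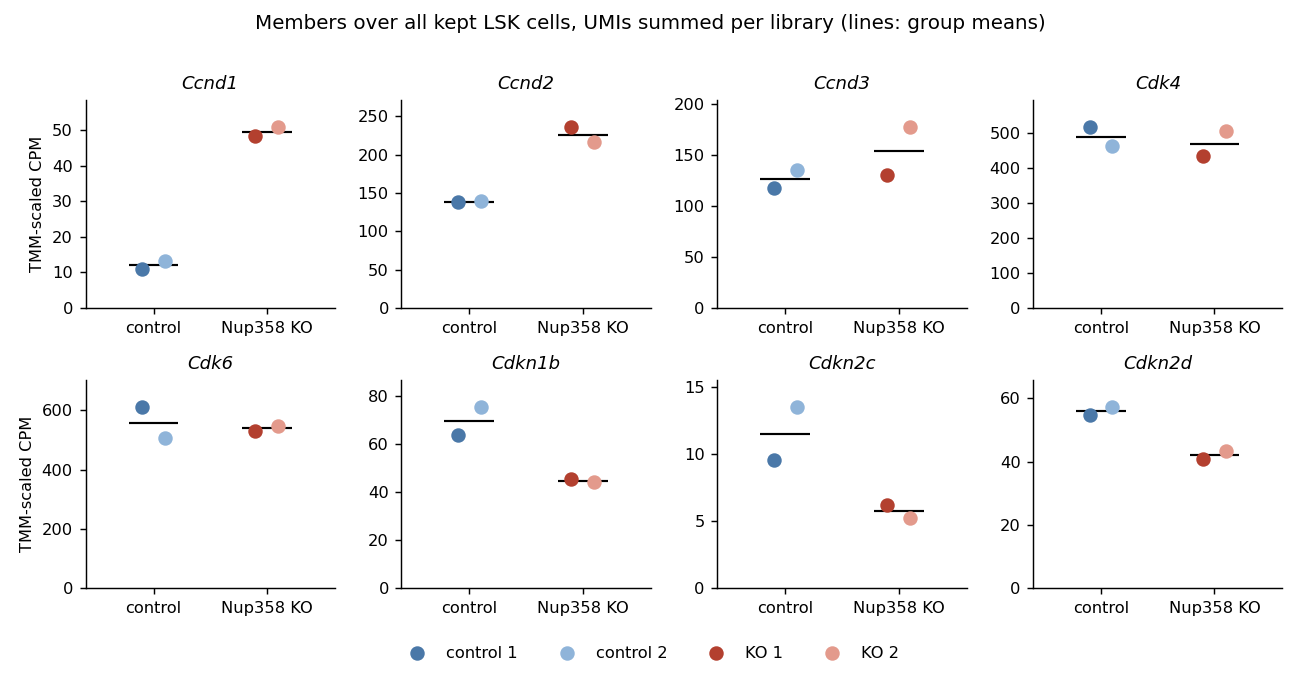
TMM-scaled CPM of the 8 members over all kept LSK cells, 1 panel per gene with its own axis from 0, 1 point per library (blue control, red Nup358 knockout) and lines at the group means. The knockout points of Ccnd1 (48.3 and 50.9) and Ccnd2 (236 and 216) lie above both control points, those of Cdkn1b, Cdkn2c and Cdkn2d lie below, and those of Ccnd3, Cdk4 and Cdk6 overlap the control points.

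The balance among the 3 D cyclins shifted in the share of Ccnd1. Of the UMIs of the 3 cyclins, Ccnd1 held 4.11% and 4.61% in control and 11.6% and 11.4% in knockout libraries. Ccnd2 held 51.9% and 48.3% in control and 56.9% and 48.7% in the knockout, with means 2.71 points apart and knockout replicate 1 above both control libraries. Ccnd3 held 44.0% and 47.1% in control and 31.4% and 39.9% in the knockout. The mean difference of the Ccnd3 share was −9.90 points and that of the Ccnd1 share 7.18 points. Ccnd1 UMIs, which chose the group, stand in the denominator of all 3 shares, so no test of them is used, and the CPM of Ccnd3 was 1.21-fold the control mean. The exact 95% binomial intervals of the Ccnd3 share, which cover counting error only, were 30.6% to 32.2% and 39.3% to 40.5% in the knockout libraries and do not overlap. Cells of the B-cell progenitor gate, described below, held 136 of the 4339 Ccnd3 UMIs of knockout replicate 1 and 1976 of the 9647 of replicate 2. The part of that gate in the gap between these libraries was not tested.

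**Figure D2:**
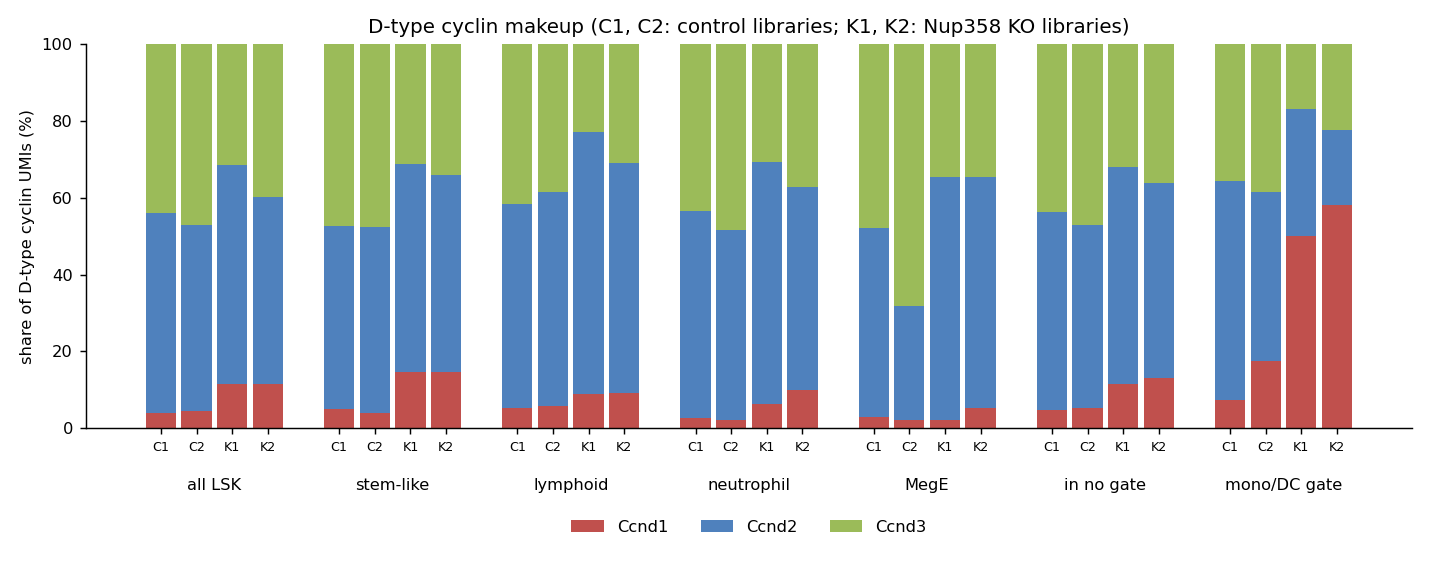
Share in percent of Ccnd1 (red), Ccnd2 (blue) and Ccnd3 (green) among the UMIs of the 3 genes, 1 stacked bar per library (C1 and C2 control, K1 and K2 knockout), over all LSK cells and in 6 groups of cells. The largest Ccnd1 shares, 50% and 58.2%, are in the knockout libraries of the monocyte and dendritic gate (mono/DC).

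In single cells brought to 2000 UMIs each, a Ccnd1 UMI was found in 2.35% and 2.94% of control cells and 9.65% and 9.44% of knockout cells. Without thinning the shares were 7.14%, 13.5%, 44.2% and 41.8%, at median depths of 6469, 13251, 18363 and 14918 UMIs. In B-cell progenitor cells of the knockout, 0 of 60 and 2 of 168 thinned cells had a Ccnd1 UMI, at median depths of 3324 and 10475.5 UMIs. The 0 of 60 allows up to 5.96% (exact binomial), which lies above both control shares. Whether these UMIs are background or low expression was not tested. Ccnd2 was found in 24.8% and 23.5% of thinned control cells and 34.7% and 34.2% of thinned knockout cells, Ccnd3 in 21.9%, 24.3%, 22.9% and 28.0% in the same order. Cells with no D cyclin UMI made up 57.2% and 57.9% in control and 46.2% and 43.3% in the knockout. Ccnd2 was found in 41.4% and 40.9% of the knockout cells with Ccnd1 and in 33.9% and 33.5% of those without it, against 25.3% and 25.7% with and 24.8% and 23.4% without it in control. Cells within a library are not replicates, and these shares were not tested.

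Progenitor types were set by marker genes that include none of the members. In cells thinned to 2000 UMIs, 2258 passed a neutrophil gate (Elane, Prtn3, Ctsg and others), 502 a lymphoid gate (Dntt, Flt3, Satb1, Notch1, Ccr9, Il7r), 404 a megakaryocyte or erythroid gate (MegE-primed, Pf4, Itga2b, Car1, Klf1 and others) and 1505 a stem-like gate (Procr, Hlf, Mecom and others). A further 8329 of 13480 cells passed no gate. The neutrophil gate held 1971 and 160 cells in control and only 68 and 59 in knockout libraries. For the lymphoid gate the numbers were 212 and 99 against 43 and 148, and for the stem-like gate 957 and 257 against 101 and 190. Ungated cells made up 53.0% and 53.3% in control and 77.5% and 78.3% in knockout libraries. The types were compared with stem-like cells of the same library, in 1 fit over the 4 libraries.

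Kinases and Ccnd2 were lower in stem-like cells than in primed cells of 1 or more types, and Ccnd1 and Cdkn1b were higher. In neutrophil-primed cells Cdkn1b had a log2 difference of −1.003 (SE 0.13, edgeR adjusted p = 3.3e-06) from stem-like cells. Its levels went from 77.2, 91.4, 61.3 and 55.4 CPM in stem-like to 45.6, 45.4, 28.1 and 19.3 CPM in neutrophil-primed cells of control replicates 1 and 2 and knockout replicates 1 and 2. Cdkn1b was lower in all 4 libraries. Ccnd1 also fell (log2 −0.90, SE 0.22, edgeR adjusted p = 0.0015), from 13.2, 13.0, 52.2 and 52.9 CPM to 6.08, 5.18, 26.9 and 44.9 CPM, lower in 4 of 4. Cdk4 rose by 0.46 (SE 0.08, edgeR adjusted p = 4.6e-05), from 416, 356, 395 and 464 CPM to 576, 592, 486 and 582 CPM. Cdk6 rose by 0.49 (SE 0.11, edgeR adjusted p = 0.00087), and Cdkn2d fell by 0.42 (SE 0.14, edgeR adjusted p = 0.014). Cdkn2d lost its call without control replicate 1 (adjusted p = 0.12), without control replicate 2 (0.061) and with DESeq2 (0.055). In all 5 of 8 members were called, where 56.4% of 9782 genes were. That count lies near the share and is no result about the group. In the neutrophil gate, the summed UMIs of the neutrophil list per 2000 were 29.1 and 28.6 in control and 14.7 and 15.3 in knockout cells, so the gated cells carried fewer marker UMIs in the knockout.

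In MegE-primed cells 6 of 8 members were called by edgeR, where 37.2% of genes were, and 4 of 8 by DESeq2, in which Ccnd2 (adjusted p = 0.063) and Cdkn2c (0.10) missed the threshold. Cdk6 rose by 0.66 on the log2 scale (SE 0.11, edgeR adjusted p = 0.00014), from 530.3, 409, 358 and 322 CPM in stem-like to 603, 573, 658 and 719 CPM in MegE-primed cells, in the order of libraries given above. The knockout libraries were the lowest in stem-like cells and the highest in MegE-primed cells. Ccnd3 rose by 0.48 (SE 0.15, edgeR adjusted p = 0.017), from 126, 157, 109.8 and 123 CPM to 158, 294, 147 and 169 CPM, higher in 4 of 4. Ccnd1 fell by 1.07 (SE 0.28, edgeR adjusted p = 0.0054), from 13.2, 13.0, 52.2 and 52.9 CPM to 9.77, 9.003, 9.82 and 25.8 CPM, and this call was lost without knockout replicate 1 (log2 −0.76, adjusted p = 0.065). Cdkn1b fell by 0.57 (edgeR adjusted p = 0.0077; 0.091 without control replicate 1), while Ccnd2 rose by 0.35 (edgeR adjusted p = 0.042) and Cdkn2c by 0.77 (edgeR adjusted p = 0.048). The Ccnd2 call was lost without control replicate 1 (adjusted p = 0.11) and without knockout replicate 1 (0.087) or 2 (0.28), and the Cdkn2c call without control replicate 1 (0.16) or 2 (0.32). The MegE gate held 273 and 25 cells in control and 26 and 80 in knockout libraries. Erythroblast markers in this gate summed to 854 and 47422 CPM in control (5 of 5 detected in each) and 21.6 and 71.6 CPM in knockout libraries (2 and 3 of 5), so the 25 cells of control replicate 2 stood apart and both knockout libraries were below both control libraries. They also had the highest Ccnd3, Cdkn2c and Cdkn2d of the 4 libraries, at 294, 27.0 and 111 CPM. Without that library Cdkn2c was higher by 0.45 (adjusted p = 0.32), and Ccnd3 kept its call.

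In lymphoid-primed cells 3 of 8 members were called, where 12.7% of genes were. Cdk6 rose by 0.50 on the log2 scale (SE 0.11, edgeR adjusted p = 0.0044), to 654, 494, 592 and 558 CPM, above stem-like cells in 4 of 4 libraries. Ccnd2 rose by 0.45 (SE 0.12, edgeR adjusted p = 0.019), from 127, 161, 191 and 184 CPM to 149, 189.5, 326 and 282 CPM. The Ccnd2 call was lost without knockout replicate 1 (adjusted p = 0.11) or 2 (0.096). Cdk4 rose by 0.25 (edgeR adjusted p = 0.038), and it missed the threshold without any 1 of the 4 libraries (adjusted p from 0.069 to 0.11). Ccnd1 (−0.07), Ccnd3 (−0.04) and Cdkn1b (−0.10) had log2 differences near 0 and Cdkn2d one of −0.47 (edgeR adjusted p = 0.054). For Ccnd1 and Cdkn1b the value near 0 averages opposite directions. Both were higher than in stem-like cells in the control libraries and lower in the knockout libraries, and the interaction of Cdkn1b, given below, was not called. Among neighbours in the order of group means, the Cdk6 levels of MegE-primed (638 ± 64.2 CPM, SD, n = 4), lymphoid-primed (575 ± 67.1) and neutrophil-primed cells (569 ± 44.7) were within their spread, and stem-like cells had 405 ± 90.9 CPM. Stem-like cells carried fewer UMIs of the S list than the other 3 types in the control libraries, 5.13 per 2000 against 6.05 to 8.31 in replicate 1 and 3.25 against 5.08 to 7.72 in replicate 2. In the knockout they had 7.11 against 7.62 to 7.84 in replicate 1, and 7.34, within the 6.86 to 8.27 of the other types, in replicate 2. With the comparison limited to cells high in the S or G2/M lists, the Cdk6 differences were smaller. They were called in lymphoid-primed (log2 0.36, edgeR adjusted p = 0.047) and neutrophil-primed cells (0.30, edgeR adjusted p = 0.026). S-high and G2M-high cells are pooled there, and the part of cycling in the type differences of Cdk6 and the other members was not tested. Cells high in either list were 1516 of 1971 and 100 of 160 neutrophil-primed cells in control and 38 of 68 and 36 of 59 in the knockout. Of stem-like cells they were 316 of 957 and 43 of 257 in control and 58 of 101 and 124 of 190 in the knockout.

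**Figure D3:**
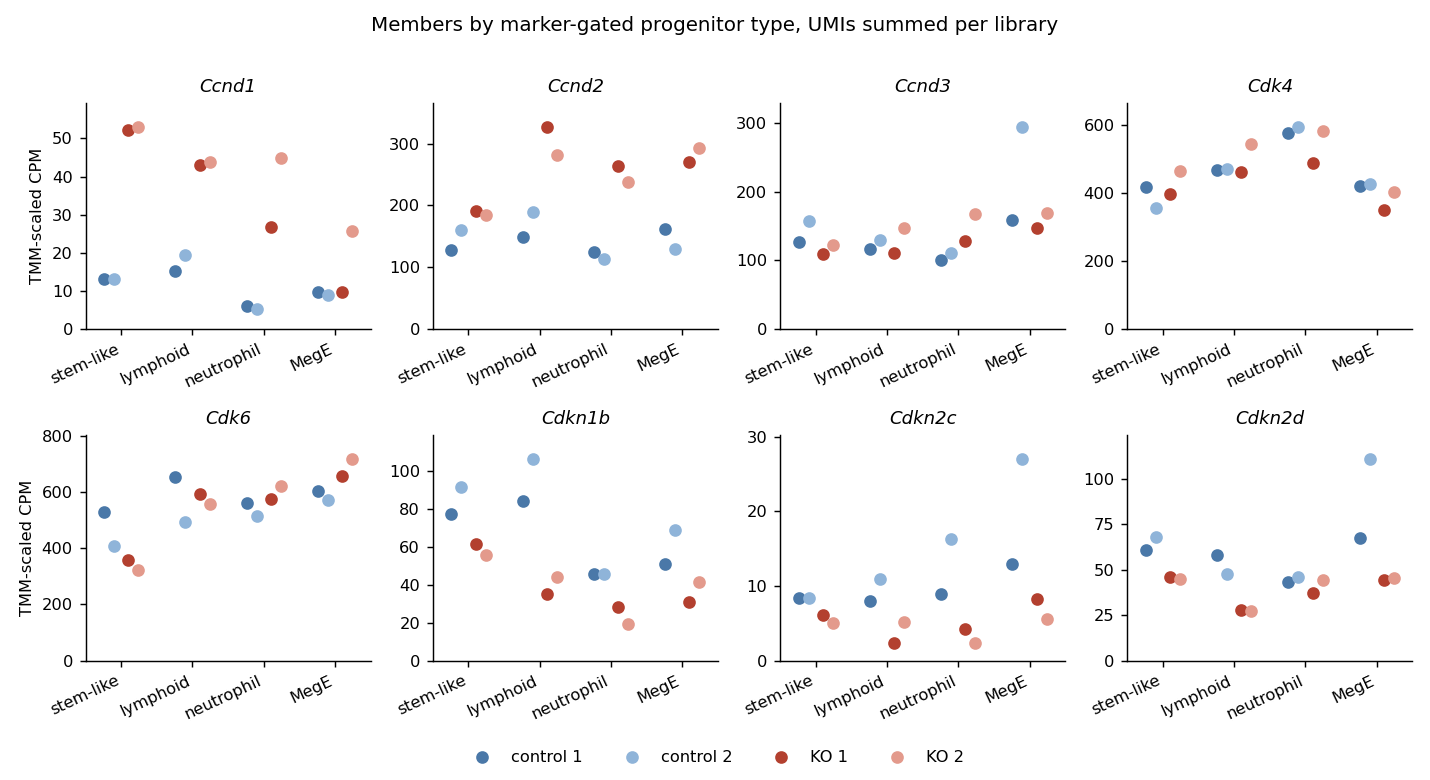
TMM-scaled CPM of the 8 members in stem-like, lymphoid-primed, neutrophil-primed and MegE-primed cells, 1 point per library (blue control, red Nup358 knockout), each panel with its own axis from 0. Cdk6 is lowest in stem-like cells (322 to 530.3 CPM) and Cdkn1b lowest in neutrophil-primed cells (19.3 to 45.6 CPM). The knockout points of Ccnd1 lie above the control points of the same type, except in MegE-primed cells, where knockout replicate 1 is level with control.

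Cycling state was read from lists of S and G2/M genes that hold none of the members: 1471 cells were low in both lists, 3581 were S-high and 5038 were G2M-high. Low cells made up 11.7% and 28.0% of thinned control cells and 8.12% and 4.14% of thinned knockout cells. For S-high cells the shares were 26.8% and 20.2% against 28.8% and 27.4%, and for G2M-high cells 36.8% and 19.1% against 36.1% and 46.1%. The part of this mix in the genotype differences over all LSK cells was not tested. Cdk4 and Cdkn2c rose with cycling, while Ccnd2 and Cdkn1b fell. Cdk4 rose by 1.02 on the log2 scale from low to G2M-high cells (SE 0.11, edgeR adjusted p = 1.2e-05) and by 1.07 to S-high cells (SE 0.11, edgeR adjusted p = 9.6e-06). It went from 299, 325, 173 and 219 CPM in low to 543, 519, 450.3 and 529 CPM in G2M-high cells, higher in 4 of 4 libraries. Cdkn2c, the INK4 inhibitor p18, rose by 1.39 in G2M-high (SE 0.23, edgeR adjusted p = 0.00036) and by 1.08 in S-high cells (SE 0.24, edgeR adjusted p = 0.003). Its levels were 4.12, 7.12, 4.90 and 1.35 CPM in low cells and 12.4, 19.7, 7.42 and 5.72 CPM in G2M-high cells, a rise in 4 of 4 libraries at low counts.

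Cdk6 rose by 0.80 in G2M-high cells (SE 0.26, edgeR adjusted p = 0.022), with little difference within the control libraries. Cdk6 was at 597 and 467 CPM in low and 625 and 528 CPM in G2M-high control cells, and at 187 and 179 CPM in low and 583 and 603 CPM in G2M-high knockout cells. Without knockout replicate 1 or 2 the call was lost (log2 0.58 and 0.53, adjusted p = 0.091 and 0.099). In S-high cells its log2 difference was 0.66 (edgeR adjusted p = 0.0503).

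Ccnd2 fell by 0.61 in G2M-high (SE 0.12, edgeR adjusted p = 0.0011) and by 0.41 in S-high cells (SE 0.12, edgeR adjusted p = 0.012). It was at 180.1, 184, 293 and 374 CPM in low and 119, 106, 237 and 219 CPM in G2M-high cells, lower in 4 of 4. The S-high call was lost without knockout replicate 2 (log2 −0.27, adjusted p = 0.074) and without cells of the B-cell progenitor gate (−0.26, adjusted p = 0.057). Ccnd1 fell by 1.57 in G2M-high cells (SE 0.37, edgeR adjusted p = 0.004). Its order over states differed by genotype in the values. In control it was highest in S-high cells (19.7 and 26.1 CPM), then low cells (13.3 and 12.4) and G2M-high cells (5.85 and 3.77). In the knockout it was highest in low cells (175 and 105 CPM), then S-high (59.5 and 67.2) and G2M-high cells (36.1 and 42.8). Whether the orders differ was not tested. Ccnd3 was not called, with log2 differences of 0.16 and 0.17 (edgeR adjusted p = 0.38 and 0.35).

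Cdkn1b fell by 0.51 in G2M-high (SE 0.10, edgeR adjusted p = 0.0016) and by 0.84 in S-high cells (SE 0.11, edgeR adjusted p = 7.2e-05). It was at 90.7, 99.4, 88.2 and 56.7 CPM in low and 52.7, 61.0, 34.6 and 39.4 CPM in S-high cells. In ungated cells alone the G2M-high difference of Cdkn1b was −0.17 (adjusted p = 0.26). Cdkn2d fell in S-high cells (log2 −0.59, SE 0.14, edgeR adjusted p = 0.0055), to 37.1, 38.1, 30.9 and 34.8 CPM, and was not called in G2M-high cells, where it was at 67.9, 87.8, 46.7 and 49.6 CPM. The S-high call of Cdkn2d was lost without control replicate 1 (adjusted p = 0.058) and in ungated cells (−0.24, adjusted p = 0.36). In all 6 of 8 members were called in G2M-high cells, where 51.4% of 11744 genes were, and 5 of 8 in S-high cells, where 48.0% were. The S-high count lies near its share, and neither count is read as a result about the group.

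**Figure D4:**
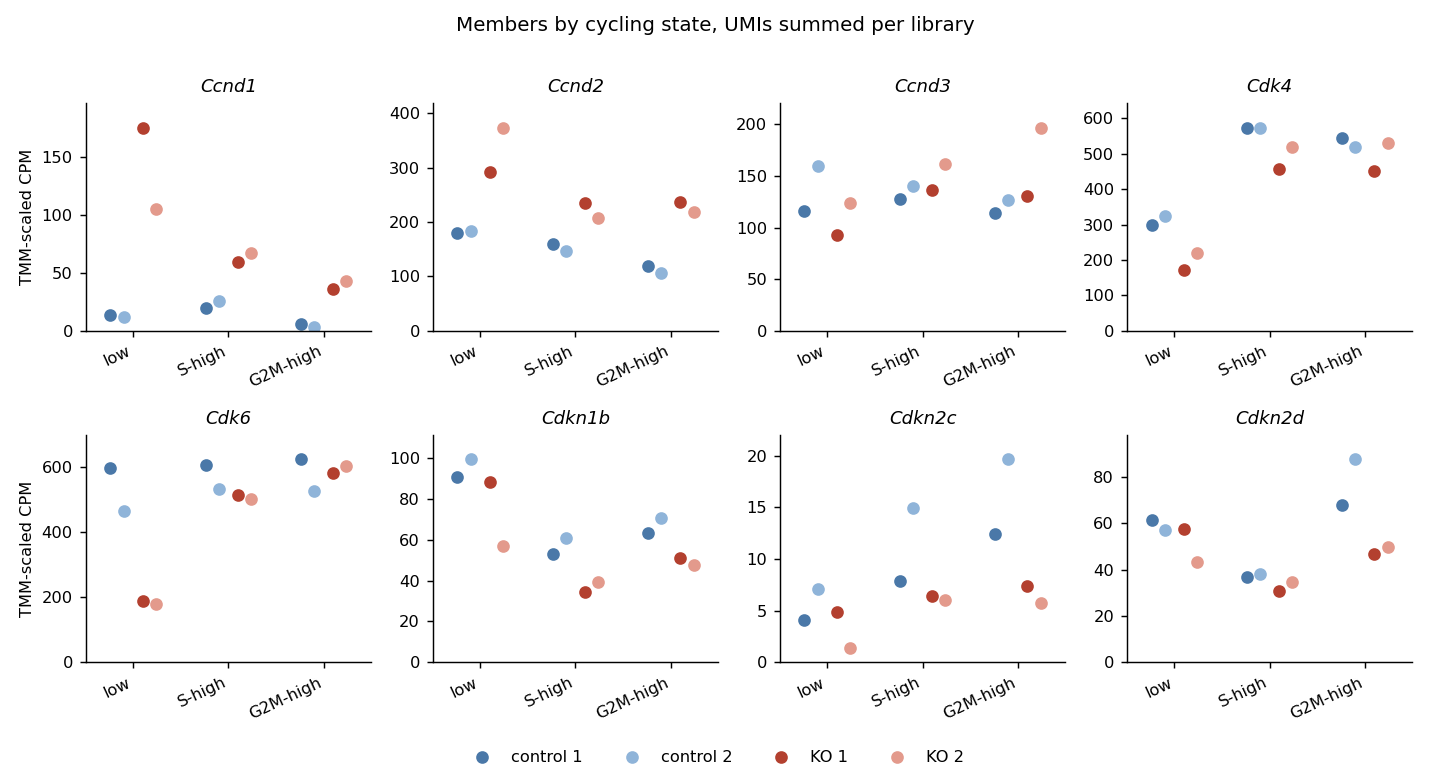
TMM-scaled CPM of the 8 members in cells low in S and G2/M genes, S-high cells and G2M-high cells, 1 point per library (blue control, red Nup358 knockout), each panel with its own axis from 0. Cdk4 is lowest in low cells (173 to 325 CPM), and in low cells the 2 knockout points stand apart from control for Ccnd1 (175 and 105 against 13.3 and 12.4) and Cdk6 (187 and 179 against 597 and 467).

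Within progenitor types, Ccnd2 was higher in the knockout in neutrophil-primed and lymphoid-primed cells, and Cdkn1b was lower in lymphoid-primed and ungated cells. In neutrophil-primed cells Ccnd2 was at 114 and 105 CPM in control and 247 and 222 CPM in the knockout, a 2.14-fold rise (log2 1.10, SE 0.17, edgeR adjusted p = 0.005). It was the 1 member of 7 called there, where 2.42% of genes were, and the call was lost without knockout replicate 1 (log2 1.01, adjusted p = 0.11). At an unadjusted p under 0.05 there were 4, beside 1708 of 9795 genes. DESeq2 called 1, beside 194 of 9795 genes. Cdkn1b in these cells was at 42.0 and 42.3 CPM in control and 26.2 and 18.0 CPM in the knockout (edgeR adjusted p = 0.069). It passed without control replicate 1 (adjusted p = 0.027) or 2 (0.0054), as did Cdkn2c without control replicate 1 (log2 −2.27, 0.0035) and Ccnd3 without control replicate 2 (0.58, 0.032). Mature neutrophil markers (6 of 6 detected in each library) summed to 468 and 4221 CPM in the control cells of this gate and 838 and 4368 CPM in the knockout cells, so they differed within both groups. The neutrophil list of the gate itself, given above, was lower in the knockout cells, and its part in the Ccnd2 difference was not tested.

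In lymphoid-primed cells 2 of 7 were called, where 1.71% of genes were. Ccnd2 rose from 153 and 194 CPM in control to 333 and 288 CPM in the knockout (log2 0.83, SE 0.21, edgeR adjusted p = 0.046). Cdkn1b fell from 86.0 and 109 CPM to 35.5 and 44.7 CPM (log2 −1.24, SE 0.24, edgeR adjusted p = 0.012). In these cells the groups of both genes were apart, and so were those of Cdkn2d, at 59.3 and 48.7 CPM against 28.4 and 27.6 CPM (edgeR adjusted p = 0.063; 0.0072 without control replicate 2). The Ccnd2 call was lost without knockout replicate 1 (adjusted p = 0.34) or 2 (0.16), with DESeq2 (0.14) and with the replicate block (0.12), and the Cdkn1b call without knockout replicate 1 (0.16). Low-cycling cells were 33 of 212 and 27 of 99 lymphoid-primed cells in control and 1 of 43 and 3 of 148 in the knockout. Of ungated cells they were 495 of 4015 and 162 of 635 in control and 39 of 1165 and 67 of 2514 in the knockout. The part of this shift in the genotype differences of either set was not tested. In ungated cells Cdkn1b fell from 75.8 and 80.4 CPM to 46.2 and 44.5 CPM (log2 −0.78, SE 0.13, edgeR adjusted p = 0.039), 1 of 7 members where 2.61% of genes were called. That call was lost without knockout replicate 1 or 2, at log2 differences of −0.80 and −0.76, and with stricter gates. Ccnd2, Cdkn2c and Cdkn2d, at edgeR adjusted p of 0.064, 0.060 and 0.080 in ungated cells, all passed without control replicate 1 or 2 (0.00048 to 0.016).

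No member of 7 was called by edgeR in stem-like or MegE-primed cells, where 0.538% and 0.625% of genes were. At an unadjusted p under 0.05 there were 3 in each, beside 1681 of 10218 genes in stem-like and 699 of 8156 in MegE-primed cells. DESeq2 called 0 in each. In stem-like cells Cdk6 was at 559 and 424 CPM in control and 378 and 340.4 CPM in the knockout (log2 −0.45, edgeR adjusted p = 0.29). Without control replicate 2 the Cdk6 difference was −0.64 (adjusted p = 0.014) and the Ccnd2 difference 0.55 (0.037), and without control replicate 1 Cdkn1b was lower by −0.63 (0.016). The stem-like cells carried more cycling UMIs in the knockout, with 8.85 and 10.9 G2/M list UMIs per 2000 against 6.46 and 4.52 in control. In MegE-primed cells Ccnd2 was at 162 and 130.1 CPM in control and 275 and 293 CPM in the knockout (log2 0.93, edgeR adjusted p = 0.070). Without control replicate 1 it passed (log2 1.124, adjusted p = 0.006), as did Ccnd3 (−0.88, 0.021) and Cdkn2d (−1.30, 0.0071), which then rest on the library rich in erythroblast markers as the lone control. The part of the lower erythroblast markers of the knockout cells of this gate in its genotype differences was not tested.

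Ccnd1, described without a test, was higher in both knockout libraries than in either control library in stem-like, lymphoid-primed and neutrophil-primed cells. It was at 13.9 and 13.5 CPM against 55.0 and 55.9 CPM in stem-like cells. In lymphoid-primed cells the values were 15.6 and 19.8 against 43.8 and 44.7 CPM, and in neutrophil-primed cells 5.59 and 4.82 against 25.1 and 41.8 CPM. MegE-primed cells had the smallest gap, 9.75 and 9.08 against 9.99 and 25.9 CPM. Knockout replicate 1 rests there on 6 Ccnd1 UMIs in 26 cells and cannot be told apart from control.

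Whether a genotype difference in one type differed from that in stem-like cells was tested as an interaction. In neutrophil-primed cells 3 of 7 members had a higher knockout-minus-control difference than in stem-like cells, where 3.01% of 10337 genes were called: Ccnd2 (0.66 on the log2 scale, SE 0.17, edgeR adjusted p = 0.03), Ccnd3 (0.74, SE 0.18, adjusted p = 0.022) and Cdk6 (0.60, SE 0.13, adjusted p = 0.012). Knockout cells of the neutrophil gate carried fewer UMIs of its marker list, and the part of this in those 3 results was not tested. In MegE-primed cells Cdk6 differed (0.74, SE 0.14, edgeR adjusted p = 0.0078), 1 of 7 where 0.871% of genes were called. Its genotype difference was −0.45 in stem-like and 0.24 in MegE-primed cells when each type was fitted alone, neither past the threshold. The erythroblast markers of the MegE gate, at 854 and 47422 CPM in control and 21.6 and 71.6 CPM in knockout libraries, moved with genotype too, and their part in the Cdk6 result was not tested. In lymphoid-primed cells none was called by edgeR (0.0193% of genes). At an unadjusted p under 0.05 there were 3 of 7, beside 612 of 10337 genes, and DESeq2 was not run for this contrast. Of the pathway genes followed below, 3 of 26 tested were called by edgeR in neutrophil-primed cells, where 3.01% of genes were. Ccne2 (−1.69), Rbl1 (−1.16) and Cks1b (−0.73) had a lower knockout-minus-control difference there than in stem-like cells. Low-cycling cells were 298 of 957 and 123 of 257 stem-like cells in control and 18 of 101 and 20 of 190 in the knockout. The part of this shift in the interaction results was not tested.

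**Figure D5:**
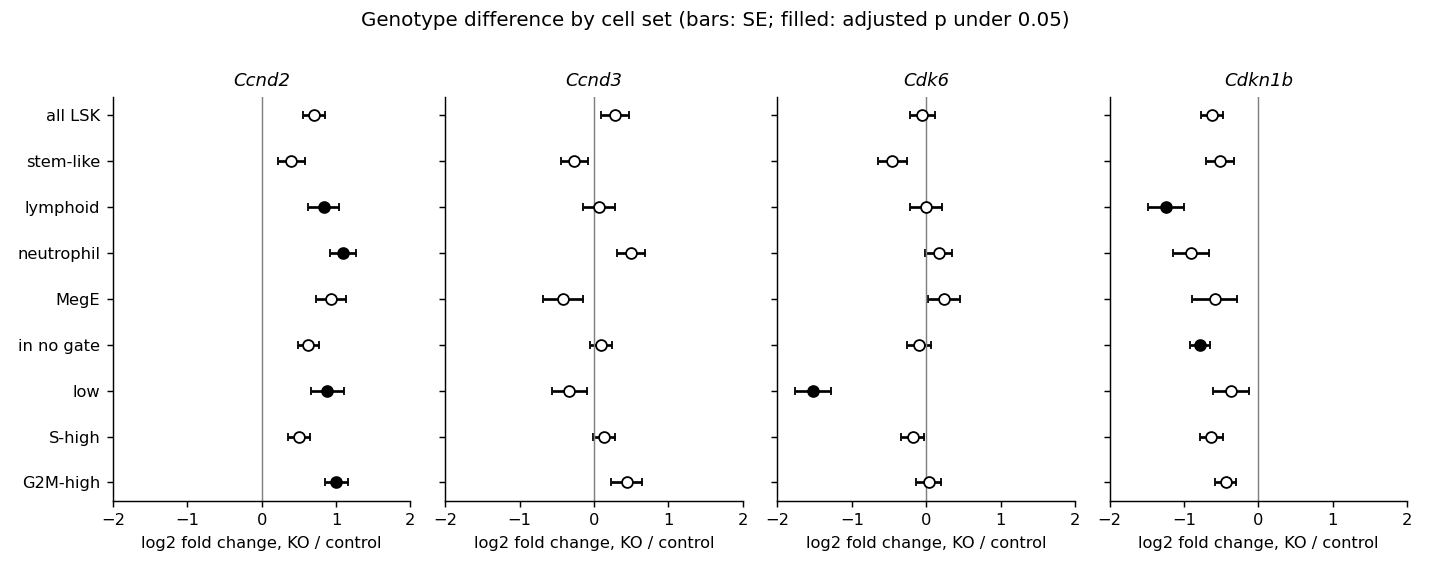
Log2 fold change of knockout over control for Ccnd2, Ccnd3, Cdk6 and Cdkn1b over all LSK cells, within each progenitor type, in cells of no gate and within each cycling state, with bars of 1 SE from the edgeR fit and filled points where the adjusted p is under 0.05. Ccnd2 lies above 0 in every set (0.40 to 1.10), Cdkn1b lies below 0 in every set (−1.24 to −0.37), and Cdk6 stands apart in low cells at −1.52.

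Within cycling states, G2M-high cells of the knockout had more Ccnd2 and less Cdkn2c. Ccnd2 rose from 117 and 103 CPM in control to 231 and 212 CPM in the knockout (log2 1.003, SE 0.15, edgeR adjusted p = 0.016), and this call was kept under all 14 alternatives. Among them, a minimum of 500 genes left the G2M-high cells unchanged. Cdkn2c fell from 12.2 and 19.1 CPM to 7.21 and 5.55 CPM (log2 −1.25, SE 0.26, edgeR adjusted p = 0.047), and the call was lost without knockout replicate 2 (adjusted p = 0.080). They were 2 of 7, where 3.52% of genes were called. Cdkn2d was at 66.7 and 85.1 CPM in control and 45.4 and 48.1 CPM in the knockout (edgeR adjusted p = 0.064; DESeq2 adjusted p = 0.022), and passed in edgeR without control replicate 1 (0.0011) or 2 (0.016). Cdkn1b passed without control replicate 1 (log2 −0.51, adjusted p = 0.030). In S-high cells no member was called by edgeR or DESeq2, where 4.46% of genes were called by edgeR. An unadjusted p under 0.05 was found for 3 of 7 members and for 2385 of 11984 genes. Cdkn1b was at 52.0 and 60.2 CPM in control and 33.7 and 38.2 CPM in the knockout there (edgeR adjusted p = 0.057). It passed without control replicate 1 (adjusted p = 0.00019) or 2 (0.0048), as did Ccnd2 (0.0032 and 0.018), and Cdkn2c without control replicate 1 (0.00013).

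In low cells Cdk6 fell from 626 and 489.6 CPM in control to 199 and 189 CPM in the knockout (log2 −1.52, SE 0.24, edgeR adjusted p = 0.00029), a call kept under all 14 alternatives. Among them, keeping copied barcodes left the low cells unchanged. Ccnd2 rose from 189 and 193 CPM to 310.5 and 394 CPM (log2 0.88, SE 0.22, edgeR adjusted p = 0.017). These were 2 of 6 members tested, where 7.43% of genes were called, and Cdkn2c had too few counts to test. Ccnd1 was at 14.0 and 13.0 CPM in control and 186 and 111 CPM in the knockout. The low cells differ in makeup between genotypes. Of 883 and 333 low control cells 298 and 123 were stem-like and 495 and 162 ungated. Of 122 and 133 low knockout cells, 39 and 21 passed the B-cell progenitor gate and 24 and 20 the monocyte and dendritic gate. The summed level of 4 plasmacytoid dendritic cell markers was 186 and 256 CPM in low control cells and 2126 and 1966 CPM in low knockout cells (Siglech, Bst2, Ly6d and Cox6a2, 3 or 4 of 4 detected in each library).

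Without the cells of those 2 gates, 875 and 327 control and 59 and 92 knockout low cells remained. Cdk6 was then at 651 and 462 CPM in control and 272 and 229 CPM in the knockout on unscaled counts, and the groups did not overlap. Of the remaining knockout cells 18 and 20 were stem-like and 39 and 67 ungated, and the part of makeup in these values was not tested. Ccnd1 was at 14.0 and 12.5 CPM against 146 and 79.9 CPM, and Ccnd2 at 194 and 181 CPM against 278 and 339 CPM. With the B-cell progenitor gate alone left out, the Ccnd2 difference was 0.58 (edgeR adjusted p = 0.13). Ccnd2 also missed the threshold in ungated cells (0.78, edgeR adjusted p = 0.11), with no filter on low counts and with crossed replicate pairs. The same held without knockout replicate 1 (log2 1.05) or 2 (0.71). Cdk4 was lower in the knockout without control replicate 1 (−0.75, adjusted p = 0.032; −0.66 and 0.090 with all libraries).

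The highest Ccnd1 levels in the data were in knockout cells that passed the monocyte and dendritic gate (Irf8, Csf1r, Ly86, Ccr2, Ms4a6c, Ctss, Cx3cr1), which were too few for a fit, 138 and 11 in control and 35 and 30 in the knockout. Ccnd1 was at 26.0 and 48.7 CPM in control and 363 and 427 CPM in the knockout, with exact 95% Poisson intervals for counting error of 302 to 434 and 324 to 553 in the knockout. A Ccnd1 UMI was found in 65.7% and 60.0% of these knockout cells thinned to 2000 UMIs, against 5.07% of the control replicate 1 cells and 0 of 11 in control replicate 2, which allows a share of up to 28.5%. Cdk4 and Cdk6 were lower in the same knockout cells, Cdk4 at 276 and 179.8 CPM against 555 and 496 CPM and Cdk6 at 372 and 149.9 CPM against 633 and 526 CPM. Cdkn1b was at 108 and 119.9 CPM against 56.8 and 87.6 CPM. The knockout cells of the gate also held 3226 and 5905 CPM of the 4 plasmacytoid dendritic cell markers, against 377 and 423 CPM in control, with all 4 detected in both knockout libraries. Macrophage markers summed to 0.963 and 4.87 CPM in the control cells of the gate (1 of 5 detected in each) and 156 and 337 CPM in the knockout cells (3 and 5 of 5). The mature B cell list was at 227 and 190 CPM in control (3 and 1 of 6 detected) and 1928 and 2713 CPM in the knockout, where H2-Aa, a class II gene that dendritic cells and macrophages also express, was the 1 marker of 6 detected. The part of these markers in the Ccnd1 levels of the gate was not tested. Kit was at 12.01 and 29.97 CPM in them, against 57.8 and 53.5 CPM in the control cells of the gate. With this gate left out, Ccnd1 over all LSK cells was at 10.8 and 12.4 CPM in control and 45.9 and 50.4 CPM in the knockout on unscaled counts, against 11.03, 12.8, 49.2 and 51.4 CPM with it.

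Cells of the B-cell progenitor gate (Cd79a, Cd79b, Ebf1, Vpreb1, Igll1 and others), 5 and 4 in control and 60 and 168 in the knockout, had a different makeup of D cyclins. In knockout replicates 1 and 2 Ccnd3 was at 356 and 915 CPM and Ccnd2 at 602 and 353 CPM, while Ccnd1 was at 5.24 and 11.1 CPM. Ccnd1 made up 0.543% and 0.869% of their D cyclin UMIs. Cdk6 was at 131 and 353 CPM there. The gate held different cells in the 2 knockout libraries, with 39 of 60 low-cycling and 10 G2M-high in replicate 1 and 21 of 168 low-cycling and 108 G2M-high in replicate 2. Mature B cell markers summed to 1681 and 375 CPM (6 and 5 of 6 detected) and plasmacytoid dendritic cell markers to 2369 and 560 CPM (3 of 4 in each, Siglech at 0). The 5 and 4 control cells of this gate are too few for a level.

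The other genes of the pathway were followed in 4 lists of 28 genes, of which 27 were counted highly enough to test over all LSK cells. None was called between genotypes over all LSK cells by edgeR. An unadjusted p under 0.05 was found for 4, beside 2986 of 13779 genes, and DESeq2 called 1, beside 946 of 13779. The median log2 difference of the 27 was 0.08, beside −0.01 over all genes. Cdkn1c, which encodes p57, a relative of p27 that marks quiescent stem cells, rose in the knockout in ungated cells (log2 1.003, SE 0.16, edgeR adjusted p = 0.039), in G2M-high cells (1.62, SE 0.27, adjusted p = 0.024) and in S-high cells (1.70, SE 0.31, adjusted p = 0.022). Its level in G2M-high cells was 2.52 and 4.24 CPM in control and 9.46 and 9.19 CPM in the knockout. Cdkn1c was the 1 pathway gene called of 26 tested in each of these sets, where 2.61%, 3.52% and 4.46% of all genes were called. Those counts lie near the shares and are no result about the pathway. In low cells Ccne1, which encodes cyclin E1, rose at low counts (log2 2.80, SE 0.64, edgeR adjusted p = 0.0086), from 1.33 and 1.30 CPM to 7.79 and 11.4 CPM. Cdkn1a, which encodes p21, fell there (−1.11, SE 0.25, edgeR adjusted p = 0.0069), from 80.7 and 92.9 CPM to 40.3 and 39.8 CPM. They were 2 of 23 pathway genes tested, near the 7.43% of all genes called, and DESeq2 called 0 of the 23. No pathway gene was called between genotypes in stem-like, lymphoid-primed, neutrophil-primed or MegE-primed cells by edgeR or DESeq2, and at an unadjusted p under 0.05 there were 7, 2, 1 and 2. Of all genes, 1681 of 10218, 1419 of 9028, 1708 of 9795 and 699 of 8156 had such a p in the same order.

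Between cycling states 14 of 26 tested pathway genes were higher and 4 lower in G2M-high than in low cells, and also 14 higher and 4 lower in S-high cells, by edgeR, where 51.4% and 48.0% of all genes were called in the same contrasts. States were set by S and G2/M genes, so a rise of genes that turn on with them follows from that choice and is a description. The list of G1/S kinases and activators had 6 higher and 0 lower of 8 in G2M-high cells, and 6 higher and 1 lower in S-high cells. Among them the E cyclins, which drive Cdk2 at the start of S phase, rose most, Ccne2 by 3.09 in G2M-high and 4.90 in S-high cells and Ccne1 by 1.504 and 3.24 on the log2 scale. Cdc25a (0.66 and 1.16), Cdk2 (0.44 and 1.05), Cdc37 (0.63 and 0.67) and Ccnh (0.46 and 0.51) also rose in both, and Mnat1 fell in S-high cells (−0.29). Of the retinoblastoma and E2F genes, E2f1 (1.18 and 2.68), E2f2 (1.75 and 2.26), E2f3 (0.56 and 0.88), E2f4 (0.85 and 0.74), Rbl1 (1.68 and 1.54) and Tfdp1 (1.41 and 1.71) rose in both. Rbl2, which encodes the retinoblastoma relative p130 of quiescent cells, fell in both (−0.49 and −0.56), Tfdp2 fell in G2M-high (−0.44) and E2f5 in S-high cells (−0.93). In the turnover list Cks1b (2.59 and 1.96) and Skp2 (1.34 and 2.03), parts of the ligase that marks p27 for destruction, rose and Dmtf1 (−0.41 and −0.42) fell, and Cdkn1c fell in G2M-high cells (−1.42).

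Between types, 10 of 26 pathway genes were higher and 6 lower in neutrophil-primed than in stem-like cells by edgeR. Together with 9 of 26 called in MegE-primed and 3 of 26 in lymphoid-primed cells, these counts lie near the shares of all genes called, 56.4%, 37.2% and 12.7%, and are no result about the pathway. Those higher ran from Ccnh (log2 0.35) to Cks1b and Ccne1 (both 0.81), with Cdc25a, Tfdp1, Cdk7, E2f1, Cdc37, Fbxo31 and E2f4 between them. Those lower were Gsk3b (−0.44), E2f5 (−0.66), Dmtf1 (−0.66), Rbl2 (−0.96), Tfdp2 (−0.99) and Cdkn1c (−3.28). In MegE-primed cells 6 were higher, from Cdc37 (0.25), Cdc25a (0.47), Cks1b (0.48) and E2f4 (0.76) to Rb1 (1.01) and Ccne1 (1.75), and 3 lower, Rbl2 (−0.55), Cdkn1a (−0.82) and Cdkn1c (−1.54). In lymphoid-primed cells Cdkn1a (0.54) and Cks1b (0.54) were higher and Cdkn1c lower (−2.38). Cdkn1c was thus lower than in stem-like cells in all 3 types, as Cdkn1b was in neutrophil-primed and MegE-primed cells.

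The genes whose levels were most like those of each D cyclin were sought over 20 sums of library and type, among 5926 genes with a mean of at least 20 CPM, as a description. For Ccnd1 they were Kpna3 (Pearson r = 0.872), an importin alpha, Dnmt3b (0.866), a DNA methyltransferase, and Hnrnph1 (0.863), an RNA-binding protein. For Ccnd2 they were Snx5 (0.885), Kpna3 (0.875) and Eif4g2 (0.867). For Ccnd3 they were Scoc (0.831), Arl4a (0.828) and Fam96b (0.822). The 20 points share 4 libraries and their depths, so those r values follow library as well as type.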

How the data were processed

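UMI counts were measured in 4 libraries of sorted bone marrow LSK cells, 2 control and 2 knockout, each a pool of 3 mice. Genotype p-values set a difference against the spread between pools. Those of types and states set it against how the difference within libraries varied over the 4 libraries. The deposited counts per gene and barcode were made by the authors with Cell Ranger 3.1 on mm10, per the submitters' processing notes, and are not normalized. Barcodes needed 200 genes, at most 10% mitochondrial UMIs and no barcode of the same sequence with at least 3 times the UMIs in another library. Doublets were not removed. Cells with 2000 UMIs were thinned to that number and gated on at least 2 different markers with at least 10 (neutrophil), 6 (stem-like, if in no other gate), 3 (lymphoid, megakaryocyte, erythroid) or 4 UMIs (others). Low cells had at most 4 UMIs of the S and G2/M lists together. G2M-high cells had at least 12 of the G2/M list and no fewer than of the S list, and S-high cells at least 8 of the S list and more than of the G2/M list. Gate and state thresholds were set after marker counts were seen. Megakaryocyte and erythroid gates were merged after cell numbers were seen.

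UMIs were summed per library and cell set of at least 20 cells and tested with edgeR 4.0.16 (quasi-likelihood, filterByExpr, TMM scaling, Benjamini-Hochberg adjusted p under 0.05 over all genes tested) in R 4.3.3. Genotype was tested as 2 libraries against 2, and types or states against stem-like or low cells with library as a term. DESeq2 1.42.0 was an alternative, and the fits were tested on simulated data. Exact intervals used scipy 1.17.1 in Python 3.11.15. Shares of Ccnd2 and Ccnd3 were compared by exact permutation of the libraries (p = 0.667 and 0.333, the latter the smallest it can reach). These are not used, because Ccnd1 stands in the denominator. Alternatives were another tool, no filter on low counts, copied barcodes kept, other gate, state and cell cutoffs, a replicate block and each library left out. Those without B-cell progenitors, in ungated or cycling cells, with at least 2000 UMIs, with looser gates and with crossed replicate pairs were chosen after seeing the data, as were the interaction tests. Same-numbered libraries did not deviate together (r = −0.12 over 13779 genes), so the main fits hold no block. Named were the 8 members, the called genes of the pathway lists and the 3 genes most like each D cyclin (mean of at least 20 CPM, log2 of CPM plus 1). Members, lists and tests were chosen with earlier results of these data known. Intervals and limits cover counting error only. Precision rested on kept UMIs, which were few for Cdkn2c and in the MegE gate, and on the spread between libraries. Over all LSK cells the SE of Ccnd3 was above those of Cdkn1b and Cdkn2d, which had fewer UMIs.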

Additional observations from a re-analysis of the deposited data

Results flagged for a closer look

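The knockout-minus-control difference of 3 genes was higher in neutrophil-primed than in stem-like cells by the interaction test of edgeR. These were Ccnd2 (0.66 on the log2 scale, SE 0.17, adjusted p = 0.03), Ccnd3 (0.74, SE 0.18, adjusted p = 0.022) and Cdk6 (0.60, SE 0.13, adjusted p = 0.012). The difference of Cdk6 was also higher in MegE-primed than in stem-like cells (0.74, SE 0.14, edgeR adjusted p = 0.0078). Each compares 2 knockout with 2 control libraries in both types, and no alternative setting was run for these tests. Marker levels in the neutrophil and MegE gates moved with genotype, and so did the share of low-cycling cells among stem-like cells. The part of either was not tested.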

How the results depend on the processing

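No member changed direction past the threshold under any alternative computed. Over all LSK cells, where edgeR called 0 members between genotypes, DESeq2, no filter on low counts and the replicate block each called 3, and keeping copied barcodes called 1. For all genes the count was 474 with edgeR, 946 with DESeq2, 1933 with no filter and 1257 with the replicate block. In G2M-high cells (2 called) states read at 1000 UMIs and stricter states each called 1. In low cells (2) no filter, ungated cells alone and leaving out B-cell progenitors each called 1. In S-high cells (0) no filter called 2, and the replicate block, states at 1000 UMIs and ungated cells 1 each. In lymphoid-primed cells (2) DESeq2, cycling cells alone and the replicate block each called 1. In MegE-primed cells (0) copied barcodes kept and no filter each called 1. In neutrophil-primed cells (1) gates at 1000 UMIs and the replicate block each called 2 and no filter 3. In stem-like cells (0) gates at 1000 UMIs called 1. In ungated cells (1) DESeq2 called 3, no filter 4, the replicate block 2 and stricter gates 0. Of all genes there, 341 were called with edgeR, 793 with DESeq2, 2046 with no filter, 456 with the replicate block and 257 with stricter gates. Between states, S-high calls went from 5 to 3 in ungated cells, and between types lymphoid-primed calls went from 3 to 1 with gates at 1000 UMIs. The Ccnd1 share differed by 6.07 points with copied barcodes kept and 7.18 points without. A replicate block crossing the numbers, added after seeing the data, called 3 members over all cells, 4 in G2M-high, 1 in low, 2 in S-high, 1 in MegE-primed, 3 in neutrophil-primed and 4 in ungated cells, and 1735 of all genes.

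Leaving out 1 library at a time, the lone library of a group is assumed to vary like the others. Genotype calls then ranged from 0 to 4 over all cells and in ungated cells, 1 to 4 in G2M-high, 0 to 3 in S-high, MegE-primed, lymphoid-primed and neutrophil-primed, 1 to 3 in low and 0 to 2 in stem-like cells, and all-gene calls over all cells from 372 to 2890. Type calls ranged from 3 to 5 (MegE-primed), 1 to 3 (lymphoid-primed) and 4 to 5 (neutrophil-primed), and state calls from 5 to 7 (G2M-high) and 4 to 6 (S-high). Share differences ranged from 6.94 to 7.43 points (Ccnd1), −1.42 to 6.84 (Ccnd2) and −14.1 to −5.66 (Ccnd3). The cause of these changes was not tested. Stricter gates could not be run for genotype within stem-like, lymphoid-primed, neutrophil-primed and MegE-primed cells or between types, nor cycling cells alone in the MegE gate, for too few cells.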
